A study of Homo sapiens with 64 samples.

Results

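The genes described here form the ATF4 amino acid stress response: the transcription factor ATF4 and genes known as its targets in amino acid synthesis, amino acid transport and stress signalling. The 32 members were set by symbol, and each matched a single Ensembl identifier among the 54127 genes listed for every library. The libraries were RNAseq of 6 human colorectal cancer cell lines (HT55, SW948, RKO, SW48, DLD1 and HCT15) grown as non-adherent spheroids with EGF and bFGF. Cells of each line had been stained with CFSE, a protein-binding dye that is diluted at every division, and after 6 days were sorted into label-retaining cells (LRCs, the dye-high cells that the labels call dormant) and non-LRCs (labelled bulk, cycling), with 4 libraries of each, 48 in all. A further 16 libraries came from unsorted DLD1 cells, stained with CFSE or left unlabeled, on labelled day 1 or day 5, with 4 libraries a group; the design text names day 6 for the late time, so it is called the late day below. All sorted cells carried the dye, no unstained sorted cells were compared, and each line is a single established line. The labels number the libraries of a group from 1 to 4 and do not tie a number to a culture, while the study's methods describe the replicates as biological; p-values measure the spread between these libraries.

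As background, ATF4 is the effector of the integrated stress response. Uncharged tRNA, unfolded protein in the endoplasmic reticulum, viral RNA and haem shortage activate separate kinases of the translation factor eIF2 alpha. Its phosphorylation slows general translation while upstream reading frames let the ATF4 messenger be translated, so ATF4 protein can change with little change of ATF4 mRNA, which is what RNAseq measures. ATF4 pairs with C/EBP proteins and binds composite C/EBP-ATF elements in its target genes. Early targets restore amino acids (ASNS, the serine enzymes, the transporters), and in long stress DDIT3, TRIB3 and CHAC1 are also raised.

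The composite element is the sequence shared by the best-known targets, so its letters were looked for in the members' promoters. The motif searched was TGATGNAA on both strands (TTNCATCA on the other), in RefSeq windows of 300 bases (250 before to 50 after each gene start, GRCh38.p14). Windows were found for 25 of the 32 members, 40 windows in all; PSPH, SHMT2, ALDH1L2, NUPR1, EIF4EBP1, PYCR1 and GPT2 had none. The motif was present in 7 members, 28.0% of those with a window, against 4.46% of the 27305 genes with a window (17.5% of member windows against 3.62% of 35116). The members were listed as known ATF4 targets, so the excess over all genes may follow from that choice and lends no support. The 7 sites, picked for the match, are shown on the gene's strand with the motif in capitals. A match is a string of letters, not a measured binding site.
CEBPG, chr19:33374060-33374089, motif starting 42 bases before the gene start: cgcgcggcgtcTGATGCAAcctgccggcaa
CHAC1, chr15:40953251-40953280, 209 bases before: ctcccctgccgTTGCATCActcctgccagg
ASNS, chr7:97872458-97872487, 68 bases before: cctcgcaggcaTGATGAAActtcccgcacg
JDP2, chr14:75427995-75428024, 16 bases before: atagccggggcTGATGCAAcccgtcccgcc
SLC1A4, chr2:64989381-64989410, 7 bases before: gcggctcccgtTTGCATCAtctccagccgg
SLC7A1, chr13:29595663-29595692, at base 8 of the transcript: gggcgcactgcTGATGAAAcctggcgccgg
SLC3A2, chr11:62881725-62881748, at base 38 of the transcript: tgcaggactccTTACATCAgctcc
The site lay on the sense strand in CEBPG, ASNS, JDP2 and SLC7A1 and on the antisense strand in CHAC1, SLC1A4 and SLC3A2. No match in the other windows says only that these letters were not in those 300 bases.

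Reads on genes ranged from 12237225 to 20913455 a library (median 15063858). Epithelial markers (EPCAM, KRT8, KRT18, KRT19, CDH1) summed to 198 to 15340.3 CPM (reads on a gene scaled to a common library size by edgeR's TMM), the low end being RKO, where EPCAM was at most 19.8 CPM and CDH1 at most 1.39 CPM. CD3E was at 0 in every library, fibroblast markers summed to at most 13.5 CPM and endothelial markers to at most 3.59 CPM; among leukocyte markers, LYZ reached 1651 CPM in SW948 and PTPRC 22.3 CPM in SW48. PECAM1 had no matching identifier. The part of these transcripts in the member values was not tested. In bulk libraries such as these, fewer cells making a transcript and less transcript per cell cannot be told apart.

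Some libraries stood apart in the members. In SW48, library 2 was the lowest of its group for 30 of the 30 members above 1 CPM in LRCs and for 29 of 30 in non-LRCs, against 38.5% and 36.1% of all genes, with a median log2 difference from the mean of the other 3 libraries of -1.13 and -1.46. ASNS, asparagine synthetase, was at 634, 49.6, 591 and 566 CPM in the SW48 non-LRC libraries 1 to 4 and at 413, 56.6, 333 and 318 CPM in the LRC libraries. The summed level of 12 proliferation genes ran the other way there, 2064 CPM in non-LRC library 2 against 641 to 1018 CPM in the other 3, and 1355 against 559 to 664 CPM in LRCs; whether this bears on the members was not tested. The library labelled SW948-LRC 4 lay nearer the non-LRC mean than the mean of the other LRC libraries for 27 of 30 members and for 72.8% of all genes, where the other 3 LRC libraries lay nearer it for 4 to 9 members. HT55 library 2 was lowest of the LRCs for 18 of 31 members and highest of the non-LRCs for 19 of 31, whereas over all genes the LRC library was lowest for 32.4% and highest for 30.3%, and the non-LRC library highest for 29.3% and lowest for 35.9%. Among the controls, the library labelled unlabeled day 1 number 4 lay nearer the late-day mean for 26 members and 73.1% of genes. These libraries were kept, and results that rest on them are given with and without them.

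**Figure D1:**
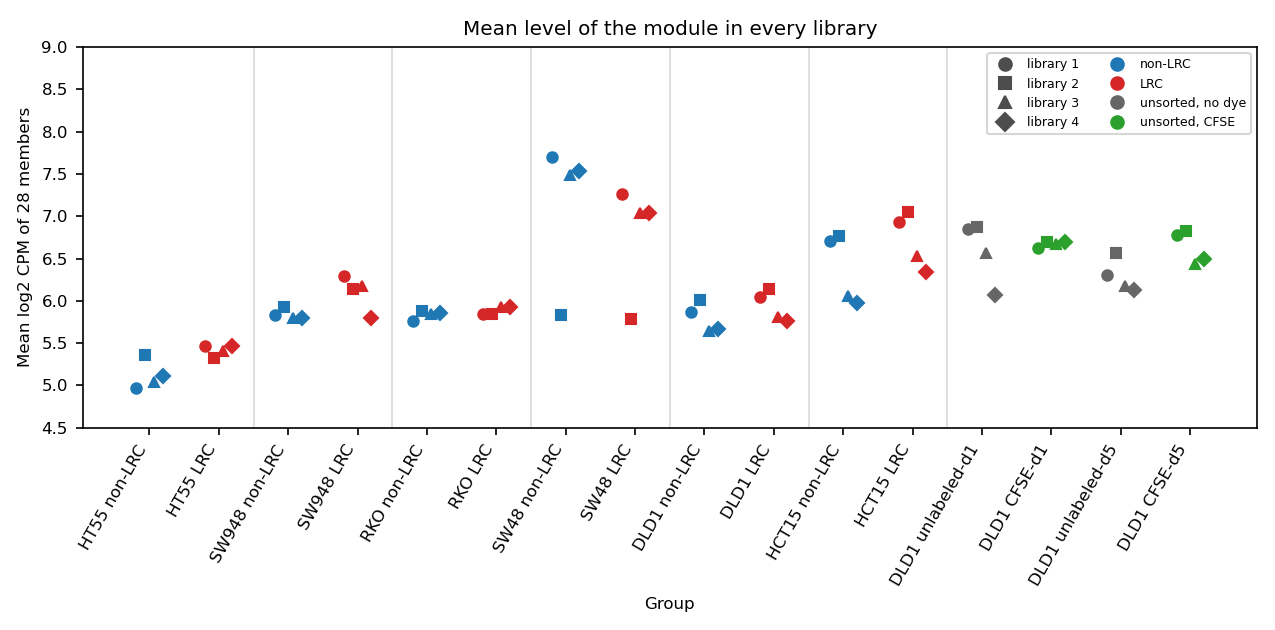
Mean log2 CPM (prior count 2) of the 28 members above 1 CPM in every line, for each of the 64 libraries; the x axis lists the groups and marker shape gives the library number. SW48 library 2 lies at 5.84 in non-LRCs and 5.79 in LRCs, below the 7.04 to 7.70 of the other SW48 libraries, and libraries 1 and 2 of HCT15 lie above libraries 3 and 4 in both populations.

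Same-numbered libraries moved together in HT55, SW48, DLD1 and HCT15 (methods below), so for these lines the difference within numbers (the replicate block) is given beside the plain test where it changes a call. In HCT15 the mean level of the 28 members was 6.70, 6.77, 6.06 and 5.97 log2 CPM in non-LRC libraries 1 to 4 and 6.93, 7.06, 6.52 and 6.34 in LRC libraries 1 to 4. The gap between libraries 1 and 2 and libraries 3 and 4 was thus larger than the gap between the populations, while every LRC library was above the non-LRC library of its number.

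The first comparison asks what LRCs share against non-LRCs, with line as a term. DDIT3, SESN2, SLC3A2 and STC2 rose in LRCs. SHMT2 and PYCR1 fell slightly, and no enzyme of serine, glycine, proline or asparagine synthesis passed the test as higher. Of the 32 members, 6 passed, 4 higher and 2 lower, by edgeR's quasi-likelihood test at a Benjamini-Hochberg adjusted p of 0.05 over all genes, where 22.9% of all 16603 genes passed it (12.2% higher, 10.7% lower). The median log2 fold change of the members was 0.02, against 0.01 over all genes. ATF4 itself stood at 0.02 ± 0.08 (log2 fold change ± SE, edgeR, adjusted p = 0.875), TRIB3, a pseudokinase that restrains ATF4 output, at 0.08 ± 0.14 (adjusted p = 0.717) and ASNS at 0.18 ± 0.18 (adjusted p = 0.522). With the replicate block 10 members passed, 8 higher and 2 lower (25.5% of all genes), adding NUPR1, CHAC1, DDIT4 and ASNS. Without the 5 libraries that stood apart (SW48 library 2 and HT55 library 2 of both populations and SW948-LRC 4) the count was also 10, 8 higher and 2 lower (27% of genes). SW48 library 2 and HT55 library 2 were picked from the member values themselves, so this count lends no support. Without the SW48 line it was 12, 11 higher and 1 lower (21.4% of genes, 11.1% higher and 10.3% lower). Every tested member was below 0 in SW48. Leaving that line out raises the count of higher members by that choice, so this count lends no support.

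**Figure D2:**
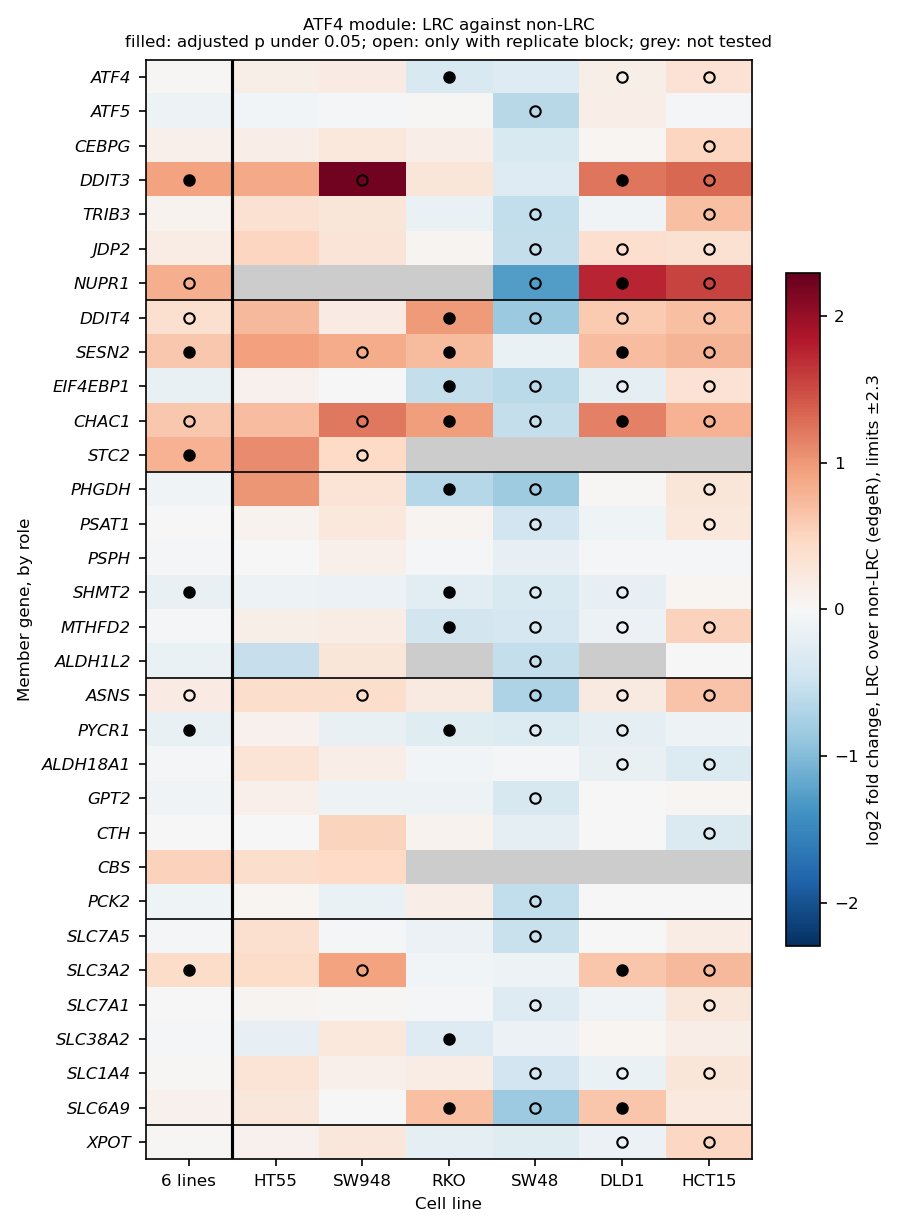
Log2 fold change of LRCs over non-LRCs for each of the 32 members (rows, grouped by role) across all lines and within each line (columns; 48 libraries for the first column and 8 for each line). DDIT3, SESN2 and CHAC1 are red in 5 of 6 lines, every tested member has a value below 0 in the SW48 column, and filled marks (plain test) stand only in the 6-line, RKO and DLD1 columns, with open marks for calls made only with the replicate block and grey for members not tested.

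DDIT3 encodes CHOP, a C/EBP-family factor of prolonged stress (ENSG00000175197, chromosome 12). In SW948 it was at 16.8, 15.5, 14.4 and 12.8 CPM in non-LRC libraries 1 to 4 and at 91.5, 71.5, 99.9 and 14.3 CPM in LRC libraries 1 to 4. In HT55 the values were 13.4, 15.9, 12.1 and 12.5 CPM in non-LRCs and 29.6, 16.9, 27.5 and 24.7 CPM in LRCs. Every HT55 LRC library was above every non-LRC library, and in SW948 the same held but for LRC 4. In DLD1 non-LRCs had 9.43, 10.5, 7.84 and 7.62 CPM and LRCs 24.4, 24.6, 18.5 and 15.2 CPM. In HCT15 non-LRCs had 22.4, 28.1, 14.7 and 11.6 CPM and LRCs 68.6, 61.4, 37.3 and 24.7 CPM. The groups were apart in DLD1 and overlapped in HCT15, where each LRC library was above the non-LRC library of its number. In RKO non-LRCs were at 19.3, 17.9, 20.1 and 19.8 CPM against 25.0, 31.4, 15.5 and 22.8 CPM in LRCs. SW48 had the highest level of any line, 138, 17.3, 121 and 118 CPM in non-LRCs and 106, 34.5, 93.4 and 88.2 CPM in LRCs. In RKO the groups overlapped, and in SW48 LRCs were lower in all numbers but library 2. Across lines the log2 fold change was 0.92 ± 0.20 (adjusted p = 0.000672, edgeR) and the value was above 0 in 5 of 6 lines, from -0.29 in SW48 to 2.23 in SW948. The difference itself varied between lines (adjusted p = 0.0176, edgeR interaction test), a call lost without the libraries numbered 1, where 0 members passed.

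SESN2, a leucine-binding inhibitor of mTORC1, gave the smallest p of the members (ENSG00000130766, chromosome 1). In RKO it was at 39.4, 42.4, 42.4 and 43.2 CPM in non-LRCs and at 80.9, 63.8, 72.4 and 66.0 CPM in LRCs. In DLD1 it was at 16.3, 16.7, 15 and 16.2 CPM and 27.6, 29.3, 25.1 and 21.8 CPM, in the same order. Neither pair of groups overlapped. HT55 had 4.31, 6.85, 4.71 and 4.5 CPM in non-LRCs and 10.5, 7.98, 11.5 and 8.99 CPM in LRCs, again apart. HCT15 had 37, 36.9, 21.8 and 19.5 CPM and 61.2, 65.2, 41.2 and 30.8 CPM, overlapping, with libraries 3 and 4 lower in both. SW948 had 14.1, 15.2, 13.9 and 16.2 CPM and 31.1, 25.1, 35.6 and 15.3 CPM, with LRC 4 among the non-LRCs. SW48 had 58, 15, 64.7 and 50.3 CPM in non-LRCs and 48.4, 20.5, 54.1 and 46.9 CPM in LRCs, the only line without a rise in the group mean. The fold change across lines was 0.62 ± 0.12 on the log2 scale (adjusted p = 0.000145, edgeR).

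SLC3A2 is the heavy chain (CD98) that carries the leucine and cystine exchangers to the cell surface (ENSG00000168003, chromosome 11), and it was the most abundant of the 31 members with a transcript length (DDIT4 had none) per kilobase of transcript on average over the lines' non-LRCs, with 184 CPM per kb. DLD1 non-LRCs had 328, 327, 288 and 308 CPM and LRCs 507, 503, 469.6 and 446 CPM. HCT15 non-LRCs had 1186, 1055, 590.0 and 524 CPM and LRCs 1557, 1786, 1250.0 and 986 CPM. The DLD1 groups were far apart, and in HCT15 each LRC library exceeded its numbered partner. SW948 non-LRCs had 124, 121, 120.3 and 132 CPM and LRCs 292, 239.7, 291 and 115 CPM. HT55 non-LRCs had 121, 187, 128 and 139 CPM and LRCs 199, 171, 199 and 199.9 CPM. Both of these lines were higher in LRCs except for SW948-LRC 4 and HT55 library 2. In RKO (143, 136, 148 and 139 CPM in non-LRCs and 149, 137, 132 and 134 CPM in LRCs) the groups overlapped. In SW48 the values were 691, 326, 511 and 557 CPM and 591, 311, 497 and 519.6 CPM, overlapping too. The value across lines was 0.42 ± 0.10 (adjusted p = 0.00186, edgeR), and it differed between lines (adjusted p = 0.0454, interaction, not past the threshold without the libraries numbered 1). SLC3A2 also differed with the dye alone in unsorted DLD1 cells (given with the controls), and LRCs hold more dye than non-LRCs; the part of the dye in the LRC difference was not tested.

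CHAC1 degrades glutathione. It was at 5.67, 7.56, 3.46 and 2.49 CPM in DLD1 non-LRCs and 13.2, 15.4, 6.78 and 7.38 CPM in LRCs, and at 29.1, 34.3, 14.3 and 10.6 CPM in HCT15 non-LRCs and 46.5, 53.3, 31.6 and 21.2 CPM in LRCs. In RKO the values were 1.67, 2.66, 3.47 and 2.18 CPM and 4.7, 3.62, 5.53 and 6.01 CPM, and in SW948 1.27, 1.96, 1.74 and 1.65 CPM and 5.21, 4.17, 4.13 and 1.84 CPM. HT55 had 2.87, 13, 3.80 and 4.64 CPM and 10.7, 11.2, 8.87 and 9.37 CPM, the non-LRC library 2 being the highest of all 8. LRCs were thus higher at each number in DLD1, HCT15, RKO and SW948, with separate groups only in RKO. SW48 was the exception, with 92.0, 2.84, 60.8 and 65.8 CPM in non-LRCs and 56.8, 3.94, 44.9 and 45.4 CPM in LRCs. Across lines CHAC1 missed the threshold (log2 fold change 0.61 ± 0.24, adjusted p = 0.0634, edgeR) and passed it with the replicate block (0.69 ± 0.14, adjusted p = 0.000441) and without the 5 libraries (0.76 ± 0.17, adjusted p = 0.000633). Those libraries were picked from the data, so the last value lends no support.

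**Figure D3:**
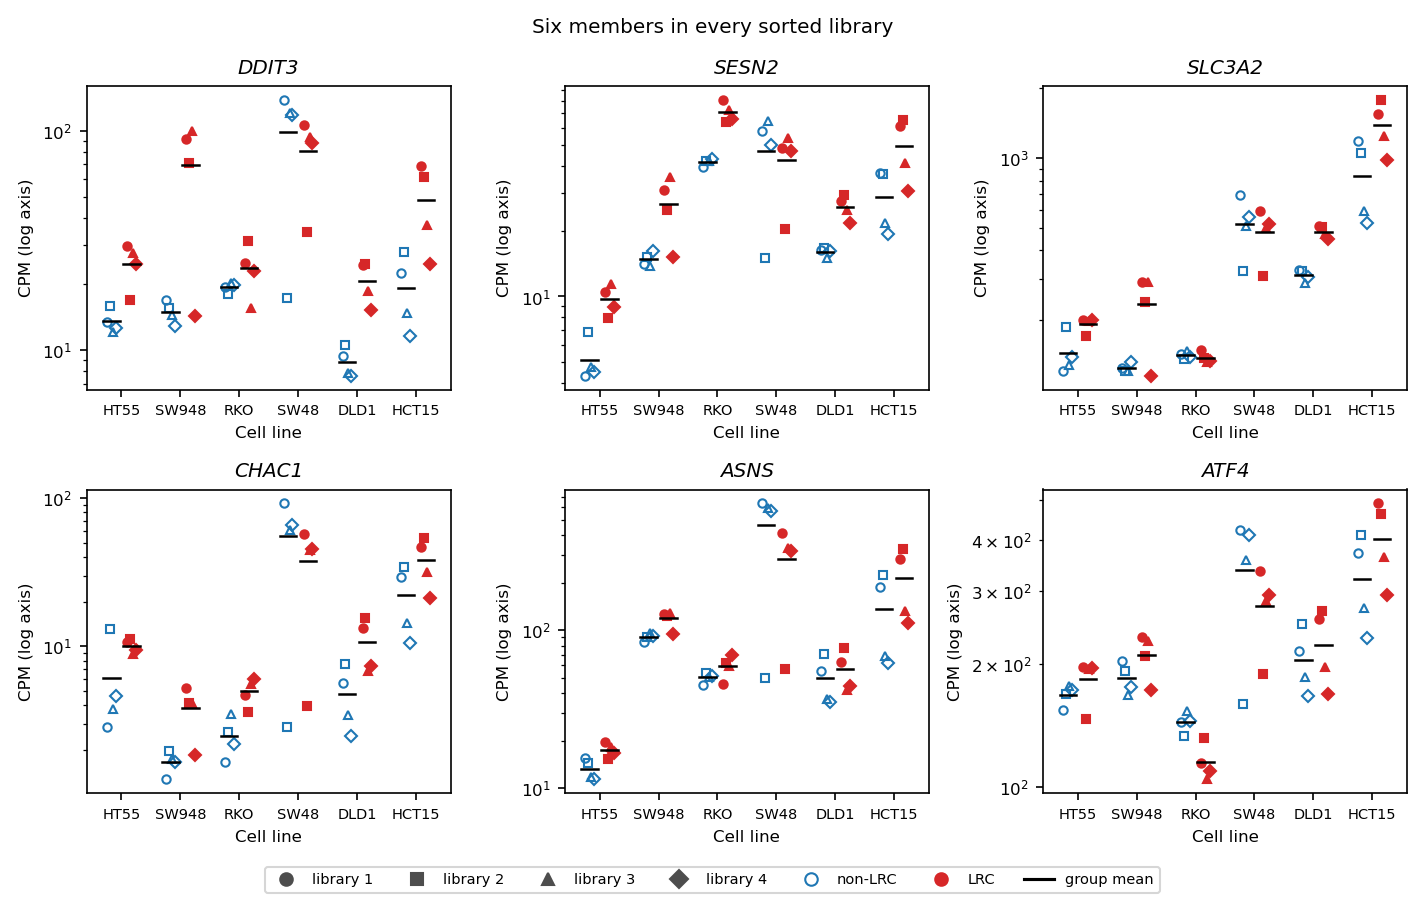
CPM (log axis) of DDIT3, SESN2, SLC3A2, CHAC1, ASNS and ATF4 in each of the 48 sorted libraries, by line; open blue marks are non-LRCs, filled red marks LRCs, shapes give the library number and bars the group mean. For DDIT3 and SESN2 the LRC mean is above the non-LRC mean in every line but SW48, with separate groups in HT55 and DLD1 for both, in RKO for SESN2, and overlap elsewhere, whereas ATF4 overlaps between populations except in RKO, where all 4 LRC libraries are lower.

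NUPR1, a small stress-induced chromatin protein, was barely expressed, with 767 counts over all 64 libraries. It was at 0.923, 0.789, 0.457 and 0.389 CPM in DLD1 non-LRCs and 2.28, 2.57, 2.10 and 1.75 CPM in LRCs. HCT15 had 0.636, 0.613, 0.771 and 0.546 CPM and 2.47, 2.36, 1.76 and 0.907 CPM. In both lines the LRC libraries were all above the non-LRC libraries. In SW48 it was at 6.00, 0.135, 3.01 and 4.12 CPM in non-LRCs and 2.21, 0.149, 1.71 and 1.33 CPM in LRCs. The SW48 groups overlapped, with the LRC library lower at every number but 2. In HT55, RKO and SW948 it stayed at or below 0.717 CPM in every library and was not tested. The fold change across lines was 0.84 ± 0.33 (adjusted p = 0.0578, edgeR) and differed between lines (adjusted p = 0.00653, not past the threshold without the libraries numbered 1). STC2, a secreted glycoprotein, was expressed in HT55 and SW948 only, where it was tested; elsewhere in sorted libraries it did not exceed 0.678 CPM. HT55 non-LRCs had 2.58, 5.64, 2.20 and 3.46 CPM and LRCs 9.68, 6.09, 7.03 and 6.93 CPM. SW948 non-LRCs had 29.5, 27.6, 19.1 and 23.6 CPM and LRCs 37.8, 43.3, 34.5 and 21.5 CPM. The HT55 groups were apart, and in SW948 only LRC 4 was below the highest non-LRC library. Its value across lines, 0.80 ± 0.17 (adjusted p = 0.000543, edgeR), therefore describes those lines.

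SHMT2, the mitochondrial serine hydroxymethyltransferase, was lower in LRCs at each number in DLD1, where non-LRCs had 148, 161, 153 and 158 CPM and LRCs 144, 145, 127 and 123 CPM. RKO had 379.7, 423, 444 and 436 CPM in non-LRCs and 369, 364, 369 and 329 CPM in LRCs. Neither pair of groups overlapped. SW48 had 384, 213, 323 and 361 CPM and 299, 150.1, 275 and 278 CPM, and SW948 250.5, 258, 216 and 231 CPM and 244, 208, 197 and 221 CPM. HT55 had 124, 159, 153 and 140.0 CPM and 118, 154, 131 and 127 CPM, and HCT15 188, 180.2, 117 and 108 CPM and 174, 185, 129.7 and 118 CPM. These 4 lines overlapped, and HCT15 was the only line with a value above 0 (0.04). The value across lines was -0.17 ± 0.07 (adjusted p = 0.0499, edgeR; 0.0565 by DESeq2). PYCR1, the last enzyme of proline synthesis, was at 123, 134, 150.2 and 139 CPM in RKO non-LRCs and 129, 108, 122 and 102 CPM in LRCs, and at 97.9, 99.9, 90.2 and 88.7 CPM in DLD1 non-LRCs and 87.4, 85.0, 83.4 and 69.2 CPM in LRCs. HCT15 had 266, 257, 232 and 199.7 CPM and 232, 238, 218 and 192 CPM, and SW48 207, 115, 169 and 198 CPM and 156, 84.4, 150.4 and 161 CPM. SW948 had 136, 142, 119.6 and 137 CPM and 127, 105, 113 and 128 CPM, and HT55 40.3, 58.9, 58.4 and 54.9 CPM and 55.7, 52.8, 54.4 and 63 CPM. Only the DLD1 groups were apart. Its value across lines was -0.17 ± 0.06 (adjusted p = 0.0310, edgeR). The PYCR1 call was lost without SW948, RKO, DLD1 or HCT15, or without libraries numbered 2, 3 or 4, and the SHMT2 call without any line but HCT15, or without libraries numbered 1, 3 or 4.

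Within DLD1, 6 members passed the test and all were higher in LRCs, where 14.6% of 13592 genes passed (6.67% higher, 7.89% lower). They were SLC3A2 (0.63 ± 0.06 log2, adjusted p = 0.000479, edgeR), DDIT3 (1.23 ± 0.17, adjusted p = 0.00166), SESN2 (0.70 ± 0.09, adjusted p = 0.00166), NUPR1 (1.75 ± 0.28, adjusted p = 0.00330), SLC6A9, a glycine transporter (0.64 ± 0.15, adjusted p = 0.0176), and CHAC1 (1.16 ± 0.34, adjusted p = 0.0443). In the single fit of the 48 sorted libraries 0 members passed in DLD1, a count given without the share of all genes. With the replicate block 17 passed, 10 higher and 7 lower (33.8% of genes). The 10 included ASNS (0.21 ± 0.05, adjusted p = 0.00344), DDIT4, another mTORC1 inhibitor (0.60 ± 0.06, adjusted p = 1.58e-08), and ATF4 (0.13 ± 0.04, adjusted p = 0.0248). The 7 that fell were SHMT2, PYCR1, ALDH18A1, MTHFD2, SLC1A4, EIF4EBP1 and XPOT, each by less than 0.25 on the log2 scale. TRIB3 stood at -0.07 ± 0.15 (adjusted p = 0.780). Of the 12 proliferation genes 9 fell in the plain test and 12 with the block, and they summed to 1612 to 1761 CPM in DLD1 non-LRCs and 938 to 1392 CPM in LRCs; the part of cycling in the enzyme values was not tested.

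HCT15, grouped with DLD1 by the study, had no member past the plain test, which 137 of 14017 genes passed (0.977%). An unadjusted p under 0.05 was found for 8 members, and DDIT3 stood at 1.33 ± 0.34 (adjusted p = 0.0980, edgeR). By DESeq2 5 members passed, 4 of them higher, a count given without the share of all genes. With the replicate block 20 members passed, 18 higher and 2 lower, against 21.3% of genes. Enzymes of amino acid synthesis were among them. ASNS rose by 0.74 ± 0.07 log2 (adjusted p = 5.28e-06), from 135 ± 82.0 CPM (mean ± SD, n = 4) in non-LRCs to 213 ± 106 CPM in LRCs. MTHFD2, a mitochondrial folate enzyme, rose by 0.55 ± 0.07 (adjusted p = 3.45e-05) and PHGDH, the first enzyme of serine synthesis, by 0.32 ± 0.07 (adjusted p = 0.00389). ATF4 rose by 0.34 ± 0.07 (adjusted p = 0.00184), TRIB3 by 0.72 ± 0.07 (adjusted p = 2.77e-06), DDIT3 by 1.32 ± 0.09 (adjusted p = 1.16e-07) and SESN2 by 0.79 ± 0.07 (adjusted p = 1.36e-06). ALDH18A1, the first enzyme of proline synthesis, fell (-0.32 ± 0.07), as did CTH, the last enzyme of transsulfuration (-0.34 ± 0.10). In both genes the groups did not overlap (ALDH18A1 at 179.7, 162, 183 and 189 CPM in non-LRCs and 122, 145, 144 and 157 CPM in LRCs). Proliferation genes summed to 1299 to 2199 CPM in HCT15 non-LRCs and 1391 to 2504 CPM in LRCs, and 5 of 12 rose with the block; their part in the member values was not tested. Without HCT15-LRC 4, 2 members passed the plain test, both higher, a count given without the share of all genes.

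HT55 and SW948 had no member and no gene past the plain edgeR test (1005 of 13391 and 2350 of 13674 genes had an unadjusted p under 0.05). DESeq2 called 2 and 4 members, all higher, counts given without the share of all genes. PHGDH in HT55 was at 1.15, 3.39, 1.67 and 2.28 CPM in non-LRCs and 5.81, 2.47, 4.84 and 4.04 CPM in LRCs, higher at each number but 2. With both HT55 libraries numbered 2 left out, 12 members passed as higher (6.13% of 13182 genes, 4.3% higher and 1.83% lower), 9 without the non-LRC library alone and 1 without the LRC library alone. Those libraries were picked because their member values ran against the difference, so the direction of these counts is fixed by the choice and they support nothing. In SW948, 15 members passed without the library labelled LRC 4, all higher (14.5% of 13517 genes, 9.32% higher and 5.15% lower). DDIT3 rose there by 2.57 ± 0.12 (adjusted p = 3.22e-08), CHAC1 by 1.46 ± 0.20 (adjusted p = 0.000369), SLC3A2 by 1.16 ± 0.08 (adjusted p = 1.5e-06), SESN2 by 1.06 ± 0.12 (adjusted p = 8.05e-05) and ASNS by 0.49 ± 0.07 (adjusted p = 0.000594). LRC 4 had been singled out for lying nearer the non-LRCs. Leaving it out widens the difference by that choice, so this count and these values lend no support. Proliferation genes summed to 1685 to 1833 CPM in SW948 non-LRCs and 1586 to 1948 CPM in LRCs, overlapping.

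RKO had 11 members past the test, 4 higher and 7 lower, where 41.5% of 12731 genes passed (20.4% higher, 21% lower). The 4 that rose were SESN2 (0.73 ± 0.08 log2, adjusted p = 7.89e-06, edgeR), DDIT4 (0.98 ± 0.18, adjusted p = 0.000491), CHAC1 (0.97 ± 0.23, adjusted p = 0.00300) and SLC6A9 (0.69 ± 0.24, adjusted p = 0.0306). DDIT4 was at 17.0, 19.5, 14.3 and 25.3 CPM in non-LRCs and 53, 34.4, 26.8 and 39.2 CPM in LRCs. The 7 that fell included ATF4 itself, at 144, 134, 153 and 145 CPM in non-LRCs and 115, 132, 105 and 109.8 CPM in LRCs (-0.35 ± 0.08, adjusted p = 0.00297). PHGDH (-0.66 ± 0.12, adjusted p = 0.000600), the translation repressor EIF4EBP1 (-0.56 ± 0.10, adjusted p = 0.000384) and MTHFD2 (-0.42 ± 0.07, adjusted p = 0.000308) fell as well. SHMT2, PYCR1 and SLC38A2, a glutamine transporter, fell by less than 0.30. ASNS (0.21 ± 0.11, adjusted p = 0.118), DDIT3 (0.28 ± 0.15, adjusted p = 0.150) and TRIB3 (-0.15 ± 0.07, adjusted p = 0.0982) missed the threshold. Of the 12 proliferation genes 10 fell, and their sum was 1804 to 1941 CPM in non-LRCs and 876 to 1538 CPM in LRCs. Mitochondrial mRNA took 6.51% to 9.47% of reads on genes in RKO LRCs and 4.2% to 6.25% in non-LRCs, also with no overlap. The part of both in the member values was not tested. With all 48 sorted libraries in one fit, 3 members passed in RKO, a count given without the share of all genes.

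In SW48 the members that passed with the replicate block were lower in LRCs. No member passed the plain test (0.796% of 13196 genes passed, 0.0758% lower; 3 members had an unadjusted p under 0.05 and 0 passed by DESeq2), but with the replicate block 20 of 30 members passed and all 20 were lower in LRCs, against 9.69% of genes in either direction (5.36% higher). PHGDH (-0.80 ± 0.06, adjusted p = 0.000142), SLC6A9 (-0.84 ± 0.09, adjusted p = 0.000506), EIF4EBP1 (-0.61 ± 0.07, adjusted p = 0.000769), the transcription factor ATF5 (-0.59 ± 0.08, adjusted p = 0.00174) and ASNS (-0.55 ± 0.14, adjusted p = 0.0358) fell. PHGDH was at 169, 51.4, 135 and 152 CPM in non-LRCs and 96.5, 33.3, 76.8 and 81.8 CPM in LRCs, lower at every number, library 2 included. SLC7A5, the light chain that pairs with SLC3A2, was at 1654, 417, 1306 and 1352 CPM and 1152, 363, 904 and 889.8 CPM, also lower at every number. CHAC1 (-0.48 ± 0.12, adjusted p = 0.0307) and TRIB3 (-0.47 ± 0.11, adjusted p = 0.0252) fell, whereas DDIT3 (-0.12 ± 0.18, adjusted p = 0.736), ATF4 (-0.23 ± 0.10, adjusted p = 0.189) and SESN2 (-0.08 ± 0.11, adjusted p = 0.691) missed the threshold. Without library 2 of both populations 18 members passed the test with no block, all lower (3.84% of 12950 genes passed, 2.56% higher and 1.28% lower), now with ATF4 (-0.39 ± 0.09, adjusted p = 0.0485) and DDIT3 (-0.39 ± 0.09, adjusted p = 0.0471). Library 2 had been picked from the member values, so this count and the ATF4 and DDIT3 calls lend no support. Proliferation genes moved the same way: 10 of 12 fell with the replicate block and 0 without it, and their sum was 559 to 1355 CPM in LRCs and 641 to 2064 CPM in non-LRCs. Mitochondrial mRNA took 12.7% to 13.4% of reads on genes in SW48 LRCs and 8.95% to 10.8% in non-LRCs, with no overlap. The part of both in the member falls was not tested.

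The difference between lines was tested directly. The LRC effect of 6 members differed between lines by the plain interaction test, where 14.3% of 16603 genes did: ALDH18A1 (adjusted p = 0.000960, edgeR), NUPR1 (0.00653), DDIT3 (0.0176), EIF4EBP1 (0.0190), PHGDH (0.0236) and SLC3A2 (0.0454). Leaving out the libraries numbered 1, 2, 3 or 4 gave 0, 18, 1 and 3 members. No share of all genes is given beside these counts, so they cannot be told from a change over all genes. With the replicate block 27 of 32 passed (33.6% of genes), and without the 5 libraries 22 (28.9%). Those libraries were picked from the data, so the last count lends no support. PHGDH shows the spread: its log2 fold change was 1.02 in HT55, 0.32 in SW948, 0.28 in HCT15, 0.03 in DLD1, -0.66 in RKO and -0.82 in SW48. ALDH18A1 in HT55 was at 442, 473, 437 and 475 CPM in non-LRCs and 622, 462, 577 and 616 CPM in LRCs. Only library 2 of the HT55 LRCs was among the non-LRCs.

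Of 14 kinases and regulators around eIF2 alpha, 2 rose and 2 fell across lines, near the 12.2% and 10.7% of all genes. EIF2AK3 (PERK, the endoplasmic reticulum stress kinase) rose by 0.27 ± 0.05 log2 (adjusted p = 3.46e-05, edgeR), while EIF2AK4 (GCN2, the amino acid sensor) stood at -0.04 ± 0.03 (adjusted p = 0.405), EIF2AK1 at -0.05 ± 0.02 (adjusted p = 0.124) and EIF2AK2 at -0.02 ± 0.04 (adjusted p = 0.719). PPP1R15A, the stress-induced phosphatase subunit that reverses eIF2 alpha phosphorylation, rose by 0.54 ± 0.11 (adjusted p = 0.000318) across lines and by 1.01 ± 0.19 in HCT15 (adjusted p = 0.0448), and fell in RKO (-0.29 ± 0.09, adjusted p = 0.0144). The exchange factor subunits EIF2B3 (-0.23 ± 0.05, adjusted p = 0.000409) and EIF2B5 (-0.09 ± 0.03, adjusted p = 0.0194) fell.

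Of 18 other known ATF4 targets, 10 rose and 0 fell across lines, where 12.2% of all genes rose and 10.7% fell, with a median log2 fold change of 0.30 against 0.01 over all genes. This list and those below were chosen with earlier results of these data known, so their counts and this median lend no support. ATF3 rose by 1.19 ± 0.15 (adjusted p = 2.89e-07, edgeR), INHBE by 1.5 ± 0.30 (adjusted p = 0.000260), VLDLR by 0.66 ± 0.13 (adjusted p = 0.000317) and KLHL24 by 0.37 ± 0.06 (adjusted p = 1.46e-05). In RKO, where ATF4 mRNA fell, GDF15, a secreted stress cytokine, rose by 4.16 ± 0.27 (adjusted p = 3.10e-08) and SESN3 by 3.5 ± 0.24 (adjusted p = 5.59e-08); several of these genes answer to other stress factors as well. In RKO 6 of 15 of these targets tested rose and 2 fell, where 20.4% of all genes rose and 21% fell. The counts across lines that follow stand against 12.2% of all genes higher and 10.7% lower. The count in RKO stands against 20.4% and 21%. Of 20 cytosolic aminoacyl-tRNA synthetases, 0 rose and 4 fell across lines (FARSA, VARS1, FARSB and KARS1, each by less than 0.20), and 0 rose and 10 fell in RKO. Of 12 folate and serine cycle enzymes tested, 0 rose and 5 fell, led by GCSH (-0.34 ± 0.06, adjusted p = 4.06e-05) and SHMT1 (-0.26 ± 0.05, adjusted p = 7.93e-05). Of 13 other amino acid transporters tested, SLC3A1 rose (0.75 ± 0.18, adjusted p = 0.00183) and SLC38A5 and SLC7A2 fell. Endoplasmic reticulum chaperones were split, 4 higher and 6 lower of 14, with DNAJB9 at 0.50 ± 0.09 (adjusted p = 4.11e-05) and PDIA6 at -0.13 ± 0.03 (adjusted p = 0.00172). Of 12 proliferation genes 5 fell and 0 rose, among them MCM2 (-0.28 ± 0.07, adjusted p = 0.00182) and MCM5 (-0.32 ± 0.08, adjusted p = 0.00302).

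Levels in the 24 non-LRC libraries differed between lines for 32 of 32 members by edgeR, but 98.3% of 15779 genes did. SW48 had the highest group mean for 23 of the 32, and for 16.6% of the 15238 genes above 1 CPM in at least 1 line. Per kilobase of transcript, SLC3A2 (184 CPM per kb, mean of the 6 line means), ATF4 (159.9), SLC38A2 (120.0) and SHMT2 (110.3) were the most abundant of those 31 members, and CBS, the first enzyme of transsulfuration (0.113), and NUPR1 (0.151) the least. PHGDH was at 2.12 ± 0.962 CPM (SD, n = 4) in HT55 and higher in the others: 63.5 ± 4.15 in SW948, 92.8 ± 7.04 in RKO, 93.1 ± 12 in DLD1, 127 ± 52.3 in SW48 and 157 ± 61.9 in HCT15. HT55 and SW948 were each apart from the next line, while RKO, DLD1, SW48 and HCT15 overlapped their neighbours in this order. ATF5 ran from 6.29 ± 0.907 CPM in SW948 to 156 ± 63.9 CPM in SW48, a 24.8-fold range. SLC38A2 was highest in RKO, at 1665 ± 223 CPM, where the line's lowest library was above every other line's highest. ALDH18A1 had its own order, with HT55 first (457 ± 20.2 CPM) and HCT15 last (178 ± 11.3 CPM), and DLD1 overlapping HCT15. ATF4 spanned 2.35-fold, from 144 ± 8.10 CPM in RKO to 338 ± 123 CPM in SW48, and only RKO was apart from its neighbour. STC2 and ALDH1L2, a mitochondrial folate dehydrogenase, were near-absent in some lines: ALDH1L2 was at 13.9 ± 2.75 CPM in SW48 and at or below 0.0789 CPM in every RKO non-LRC library. CBS did not exceed 1.29 CPM in any library. PSPH, SLC7A5, PSAT1, MTHFD2 and ATF4 have processed or duplicated copies in the genome, so their counts may miss reads that mapped to more than 1 place, and counts that overlap a gene on the other strand cannot be separated, since no source used here gives the strand setting.

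**Figure D4:**
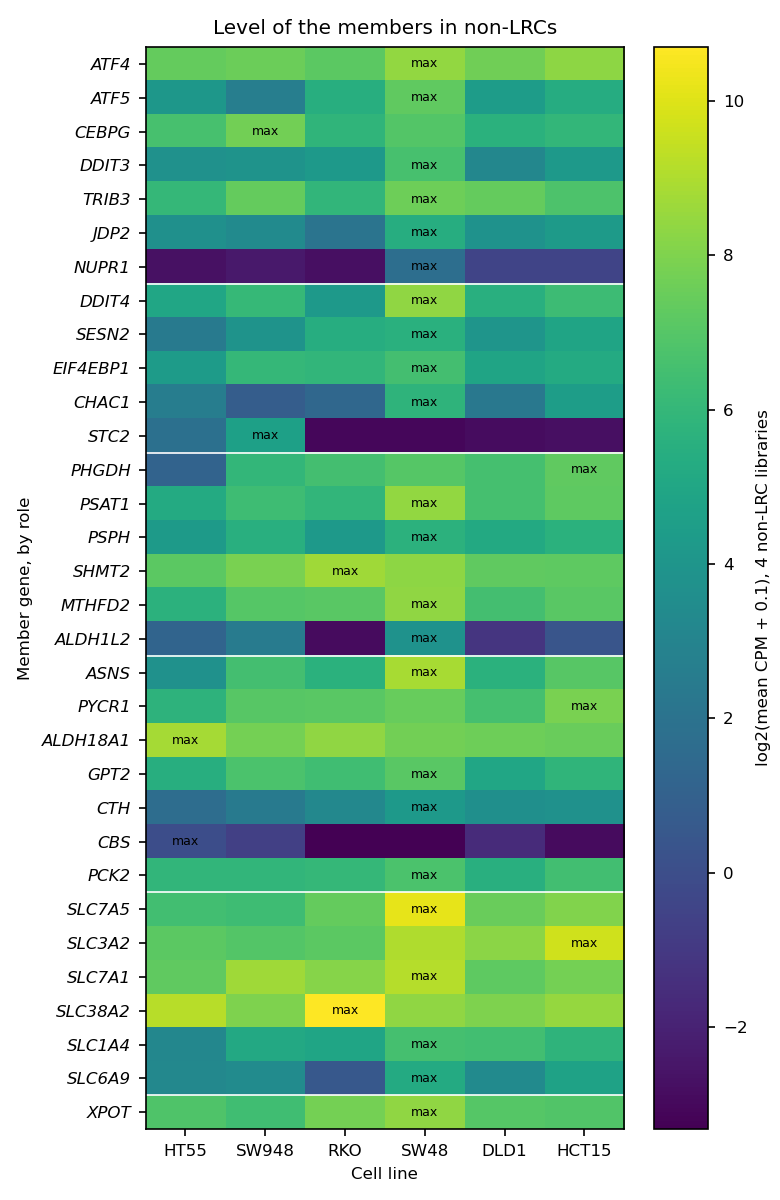
Mean level of each member in non-LRCs of the 6 lines, as log2(mean CPM + 0.1) over 4 libraries; rows are members by role, columns lines, and "max" marks the highest line. SW48 holds the highest mean for 23 members, and STC2, CBS, NUPR1 and ALDH1L2 are near the bottom of the scale in several lines.

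The control libraries address what time in spheroid culture and the dye do to unsorted DLD1 cells. Both times and dye groups share 1 fit, and the comparisons share groups. From day 1 to the late day DDIT3 fell in both: unlabeled cells had 33.4, 32.3, 22.0 and 8.67 CPM on day 1 and 9.48, 8.22, 8.49 and 9.27 CPM late, and CFSE-labeled cells 43.1, 38.2, 25.7 and 25.5 CPM and 9.43, 11, 10.4 and 8.66 CPM. The groups were apart in labeled cells, and in unlabeled cells only the library labelled day 1 number 4 was among the late ones. The log2 fold change was -1.44 ± 0.30 in unlabeled cells (adjusted p = 0.00754, edgeR) and -1.79 ± 0.30 in labeled cells (adjusted p = 0.000486). In unlabeled cells 7 of 29 members tested passed, 1 higher and 6 lower (25.5% of 14518 genes, 12.4% higher and 13.1% lower). The others that fell were CHAC1 (-1.07 ± 0.30, adjusted p = 0.0193), TRIB3 (-0.93 ± 0.29, adjusted p = 0.0312), ASNS (-0.91 ± 0.28, adjusted p = 0.0268), the tRNA exporter XPOT (-0.62 ± 0.16, adjusted p = 0.0151) and GPT2, an alanine aminotransferase (-0.55 ± 0.16, adjusted p = 0.0216). ALDH18A1 rose (0.35 ± 0.10, adjusted p = 0.0188), and ATF4 stood at -0.28 ± 0.17 (adjusted p = 0.229). Without the library labelled unlabeled day 1 number 4, 17 members passed, 16 of them lower (42.1% of genes), among them ATF4 (-0.45 ± 0.16, adjusted p = 0.0352). That library had been singled out for lying nearer the late libraries. Leaving it out widens the fall by that choice, so this count and the ATF4 call lend no support. Leaving out day 1 library 1, 2 or 3, or late library 1 or 3, left 1, 1, 3, 2 and 3 members, counts given without the share of all genes. Reads outside genes moved with time as well, from 12.1% to 14.8% on day 1 to 5.2% to 7.31% late in labeled cells and from 8.96% to 13.6% to 5.19% to 8.35% in unlabeled cells, and their part in the time differences was not tested.

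In CFSE-labeled cells 8 members passed, 5 higher and 3 lower (39.3% of genes, 20.2% higher and 19.1% lower). ATF4 (-0.54 ± 0.17, adjusted p = 0.0192, edgeR) and SESN2 (-0.96 ± 0.31, adjusted p = 0.0218) fell with DDIT3. The serine phosphatase PSPH (0.67 ± 0.15, adjusted p = 0.00249), ALDH18A1 (0.42 ± 0.10, adjusted p = 0.00333), the repressor JDP2 (0.46 ± 0.13, adjusted p = 0.0124), SLC1A4, a serine and alanine transporter (0.52 ± 0.19, adjusted p = 0.0398), and PYCR1 (0.36 ± 0.13, adjusted p = 0.0341) rose. ASNS (-0.18 ± 0.27, adjusted p = 0.618), CHAC1 (-0.13 ± 0.29, adjusted p = 0.741) and TRIB3 (-0.03 ± 0.29, adjusted p = 0.953) did not pass. Without CFSE day 1 library 1, 4 members passed, a count given without the share of all genes. The summed level of proliferation genes went from 2639 to 3125 CPM on day 1 to 3518 to 4081 CPM late in labeled cells, and from 2383 to 3623 CPM to 1845 to 2556 CPM in unlabeled cells. No member's time effect differed with the dye (0 of 29; 7 had an unadjusted p under 0.05 and 0 passed by DESeq2; 0.999% of genes passed). TRIB3, for example, stood at 0.91 ± 0.41 (adjusted p = 0.277). Without the libraries numbered 4, 6 members passed this test, a count given without the share of all genes. Those libraries include the one labelled unlabeled day 1 number 4, singled out above.

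**Figure D5:**
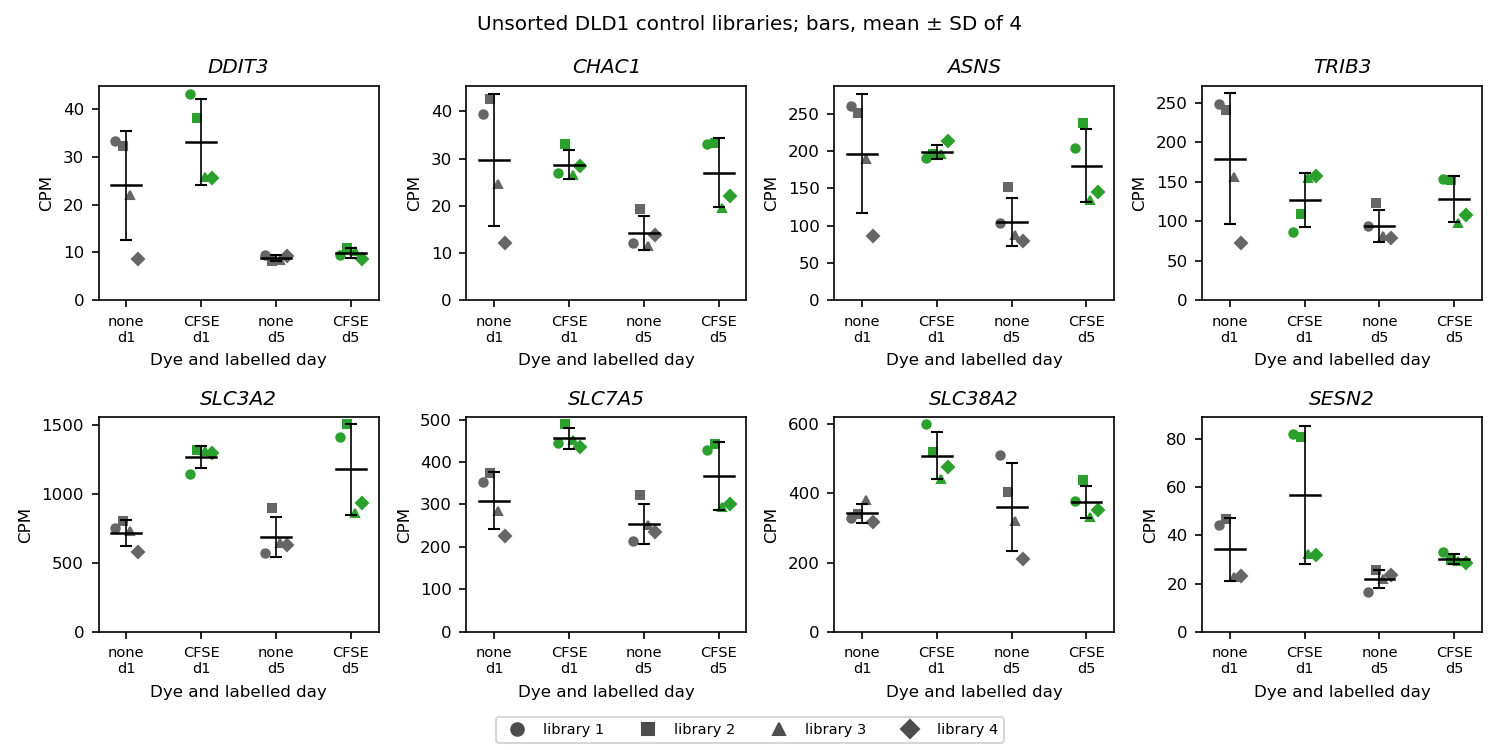
CPM of 8 members in the 16 unsorted DLD1 control libraries (points, shapes by library number; bars, mean ± SD of 4), by dye and labelled day. DDIT3 is at 8.22 to 11 CPM in all 8 late libraries, and SLC3A2 is higher with CFSE than without on day 1 in every library.

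With the dye on day 1, 3 of 29 members passed, all higher and all transporters (21.8% of genes, 9.73% higher). SLC3A2 was at 750.5, 799, 731 and 576 CPM without dye and 1143, 1314, 1308 and 1297 CPM with it (0.85 ± 0.18 log2, adjusted p = 0.00480, edgeR). SLC7A5 was at 352, 373, 285 and 227 CPM and 445, 491, 452 and 434 CPM (0.59 ± 0.17, adjusted p = 0.0232). SLC38A2 was at 330.0, 339, 381 and 318 CPM and 600.0, 521, 441 and 476 CPM (0.60 ± 0.19, adjusted p = 0.0332). In each case the groups did not overlap. Without the library labelled unlabeled day 1 number 4, SLC3A2 passed (0.73 ± 0.19, adjusted p = 0.0170), whereas SLC7A5 (0.43 ± 0.16, adjusted p = 0.0780) and SLC38A2 (0.53 ± 0.21, adjusted p = 0.0887) did not. TRIB3, PSPH, GPT2 and PCK2, the mitochondrial phosphoenolpyruvate carboxykinase, then passed as lower (18% of genes passed, 7.39% higher and 10.6% lower). That library was singled out from the data and was the lowest of its group for 22 of 28 members. Leaving it out raises most means without dye by that choice, so these lower calls lend no support. ATF4 (0.46 ± 0.17, adjusted p = 0.0598), DDIT3 (0.49 ± 0.29, adjusted p = 0.229), TRIB3 (-0.48 ± 0.29, adjusted p = 0.253), ASNS (0.04 ± 0.27, adjusted p = 0.924) and CHAC1 (-0.02 ± 0.29, adjusted p = 0.973) missed the threshold with all libraries. Leaving out CFSE day 1 library 1 or 2 left 1 member, and leaving out CFSE day 1 library 3 or 4 gave 6. These counts are given without the share of all genes.

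On the late day the dye again went with more SLC3A2, 573, 898, 645 and 631 CPM without and 1411, 1504, 861 and 930.1 CPM with dye (0.77 ± 0.18, adjusted p = 0.0261, edgeR), and with more SLC7A1, the cationic amino acid transporter, 181, 256, 187 and 168 CPM and 334, 343, 254 and 249.6 CPM (0.57 ± 0.15, adjusted p = 0.0421). In both, library 2 without dye was above the lowest libraries with dye. These were the 2 members of 29 that passed, both higher (5.13% of genes, 3.11% higher), and 0 passed without CFSE late library 1 or 2 or unlabeled late library 1, 3 or 4, while 5 passed without unlabeled late library 2. The counts with a library left out are given without the share of all genes. ATF4 (0.20 ± 0.17, adjusted p = 0.501), DDIT3 (0.15 ± 0.30, adjusted p = 0.803), TRIB3 (0.43 ± 0.29, adjusted p = 0.385), ASNS (0.77 ± 0.27, adjusted p = 0.1) and CHAC1 (0.92 ± 0.30, adjusted p = 0.0743) did not pass. Of the 12 proliferation genes 11 were higher with the dye in the same comparison, and their part in it was not tested. Outside the members, SLC7A11, the cystine exchanger that pairs with SLC3A2, was higher with dye on the late day (1.29 ± 0.24, adjusted p = 0.0169) and not past the threshold on day 1 (0.45 ± 0.24, adjusted p = 0.190). PPP1R15A was higher with dye on day 1 (1.56 ± 0.39, adjusted p = 0.0116) and fell with time in labeled cells (-2.23 ± 0.40, adjusted p = 0.000762).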

How the data were processed

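RNAseq libraries (TruSeq, 50-base single-end reads) were analysed from the deposited counts: raw reads per gene, whole numbers, which the authors made by aligning to hg19 with TopHat and counting with HTSeq; their versions, annotation and strand setting are not given in the sources used here. Summary rows (no feature, ambiguous and the like; 5.19% to 14.8% of reads were outside genes) were left out. Gene positions and names came from GENCODE release 44 mapped to GRCh37. A gene was tested where 4 or more of the fitted libraries held at least 10 counts, with edgeR 4.0.16 (R 4.3.3; TMM, quasi-likelihood, two-sided), adjusted by Benjamini-Hochberg over all genes tested, at a threshold of 0.05; CPM values used TMM library sizes over all 64 libraries. DESeq2 1.42.0, its size factors, no filter, a replicate block, left-out libraries and a single fit of the 48 sorted libraries were alternatives. The fits were tested on simulated data.

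Same-numbered LRC and non-LRC libraries deviated together in every pair in HT55 (lowest r 0.22 over genes), SW48 (0.185), DLD1 (0.254) and HCT15 (0.333). In SW948 (-0.013), RKO (-0.091) and the controls (-0.273) the lowest r was below 0. The mean r of same-numbered libraries there was 0.092, -0.048 and 0.147, against -0.030, 0.016 and -0.050 for different numbers. The labels give the LRC and non-LRC libraries of a line the same numbers and consecutive library indices. They do not name a shared culture, so the lines with a pairing were told from the data. The members and other gene lists were chosen with earlier results of these data known. Members past the threshold, up to 12 by p, and always ATF4, DDIT3, ASNS, TRIB3 and CHAC1 are given in each comparison, every-library values for the 8 members with the smallest p across lines, and from each other list the eIF2 kinases, PPP1R15A and at most 4 genes by p; other values were chosen after they were seen. Leaving out SW48 and HT55 library 2 of both populations, or the 5 libraries together, was chosen after seeing the data.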

Additional observations from a re-analysis of the deposited data

Results flagged for a closer look

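In groups of 4 libraries, a library was marked when its gap to the next library exceeded Dixon's 95% limit as a share of the group's range, over 128 combinations of the 8 members with every library given and the 16 groups; chance marks about 1 in 20. There were 7 such values, about as many as that rate gives over 128 combinations. SW48 library 2 was the lowest for DDIT3 in non-LRCs (0.836 of the range) and for PYCR1 (0.864) and SHMT2 (0.839) in LRCs. HT55 library 2 was the highest for SESN2 in non-LRCs (0.840) and the lowest for SLC3A2 in LRCs (0.974). RKO-LRC library 4 was the lowest for SHMT2 (0.870), and CFSE day 1 library 1 the lowest for SLC3A2 (0.898).

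The LRC effect of 6 members differed between lines by edgeR's interaction test, where 14.3% of all 16603 genes did: ALDH18A1 (adjusted p = 0.000960), NUPR1 (0.00653), DDIT3 (0.0176), EIF4EBP1 (0.0190), PHGDH (0.0236) and SLC3A2 (0.0454). Leaving out each library number in turn gave 0 to 18 members. ALDH18A1 ranged from -0.32 in HCT15 to 0.32 in HT55, EIF4EBP1 from -0.61 in SW48 to 0.34 in HCT15, and SLC3A2 from -0.12 in SW48 to 0.93 in SW948 (log2 fold change of LRCs over non-LRCs).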

How the results depend on the processing

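Values here are members past the threshold, against the 6 of the comparison across lines, 0 in HT55, SW948, SW48 and HCT15, 11 in RKO, 6 in DLD1, 6 for the difference between lines, 7 and 8 for time in unlabeled and labeled cells, 3 and 2 for dye on day 1 and the late day, and 0 for time by dye. With the replicate block they were 10 across lines, 6 in SW948, 20 in SW48, 17 in DLD1, 20 in HCT15, 27 for the difference between lines, 9 in RKO, 13 for time in labeled cells, and 5 and 8 for dye. In SW948, RKO and the controls same-numbered libraries did not deviate together in every pair. With no filter on low counts they were 4 in HT55, 9 in SW948, 1 in SW48, 10 in DLD1, 5 in HCT15, 20 between lines, 5 and 8 for dye and 2 for time by dye. DESeq2 gave 2 in HT55, 4 in SW948, 5 in HCT15, and 5 and 6 for dye. The fit of all 48 sorted libraries gave 2 in HT55, 2 in SW948, 3 in RKO, 1 in SW48, 0 in DLD1 and 3 in HCT15. Some settings were chosen after seeing the data. Leaving out library 2 of both populations gave 12 in HT55 and 18 in SW48, both picked from the member values. Leaving out the 5 libraries gave 10 across lines and 22 between lines. With the block, leaving out the unlabeled day 1 library 4 gave 18 for time in unlabeled cells. These counts lend no support. Without the SW48 line, where every tested member was below 0, the comparison across lines had 12, which lends no support either. The cause was not tested in any of these. Some counts, in this section and above, have no share of all genes beside them. For those, a change in the members cannot be told from a change over all genes.

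Leaving out 1 library or number at a time gave 4 to 6 across lines, 0 to 9 in HT55, 0 to 15 in SW948, 9 to 12 in RKO, 0 to 0 in SW48, 4 to 7 in DLD1, 0 to 2 in HCT15, 0 to 18 between lines (0, 18, 1 and 3 without numbers 1 to 4), 30 to 32 for levels, 1 to 17 for time in unlabeled and 4 to 9 in labeled cells, 1 to 6 and 0 to 5 for dye, and 0 to 6 for time by dye. The named results that were compared between settings stayed the same, weakened or strengthened, and none of them was recorded as turning its direction. That comparison did not cover every member value in every setting. DESeq2 size factors moved no count by more than 1.5 times. Low counts limit NUPR1, STC2, ALDH1L2 and CBS.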
